A study of Sus scrofa with 6 samples.

Results

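The splicing factor and heterogeneous nuclear ribonucleoprotein (hnRNP) transcripts of porcine endometrial epithelial cells were taken as the rows of the expression table whose gene symbol began with SRSF and a digit, SNRP, SF3A, SF3B, HNRNP, PRPF or U2AF. This gave 48 genes of the 10915 with values, namely 14 HNRNP, 10 PRPF, 8 SRSF, 8 SNRP, 7 SF3A or SF3B genes and 1 U2AF gene, and all 48 passed the filter on low values. The exosome group was primary epithelial culture from the uterus, at passage 3, given 10 µg per well of exosomes for 48 h. The exosomes, membrane vesicles of seminal fluid, had been precipitated with a commercial reagent from its sperm-rich fraction. The control group was the same kind of culture at passage 3 without exosomes, and each group held 3 mRNA libraries made from total RNA. The labels describe uteri of healthy slaughterhouse animals and serum-containing medium for all the cultures, and give no donor animal or culture well for single libraries. The p-values therefore cover the variation among these 6 libraries only, part or all of which may be technical.

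Introns are removed from pre-mRNA by the spliceosome, which is built from small nuclear ribonucleoproteins (snRNPs). Each is an RNA with a ring of Sm or Sm-like proteins and specific partners. SR proteins (SRSF genes) bind exons and favour their inclusion, while hnRNP proteins coat nascent transcripts and often act against exon inclusion, and the balance of both classes shapes which exons a cell keeps. SF3A, SF3B and U2AF proteins mark the 3′ end of the intron, and PRPF proteins carry the assembly into its catalytic form. Levels are given as FPKM, fragments counted per unit of transcript length and of library size, so they can be compared between genes per unit of length. A log2 change is the exosome mean minus the control mean of log2(FPKM + 1).

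FPKM summed over the 10846 genes tested was 703200 ± 11360 in the exosome libraries and 728400 ± 6268 in the control libraries (SD, n = 3 each). Sequencing depth is unknown, because the values carry no counts. The cells were checked against markers of their labelled type. Epithelial markers were abundant, with KRT8 at 2800 ± 118 FPKM in exosome and 3037 ± 48.0 FPKM in control libraries and TACSTD1, the symbol listed for EPCAM, at 358 ± 15.3 FPKM in exosome and 346 ± 12.5 FPKM in control libraries. The 9 of 12 epithelial marker symbols found summed to 11630 to 12810 FPKM in the exosome libraries and 13590 to 14020 FPKM in the control libraries. Of these 9, TACSTD1 was the 1 with a log2 change above 0, and 8 were below, down to -0.43 for CLDN3. In 6 of them all exosome libraries lay below all control libraries, against 10.4% of all genes. None of the 9 passed the test over all genes. Of 10 stromal marker symbols 5 were found. They summed to 2274 to 2494 FPKM in the exosome libraries and 2788 to 3042 FPKM in the control libraries, most of it CD90. CD90 averaged 1849 ± 69.4 FPKM in exosome and 2328 ± 93.7 FPKM in control libraries, without overlap (log2 change -0.33). All 5 stromal markers had a log2 change below 0, and none passed the test over all genes. Also among them, VIM averaged 505 ± 63.6 FPKM in exosome and 557 ± 52.4 FPKM in control libraries. COL1A2 averaged 47.5 ± 2.46 and 50.9 ± 4.67 FPKM in the same order. COL1A1 varied widely between libraries, at 20.4, 6.27 and 0.887 FPKM in the exosome and 2.48, 30.0 and 14.7 FPKM in the control libraries. No row was matched for the stromal markers DCN, LUM, PDGFRA and PDGFRB. The smooth muscle marker TAGLN averaged 104 ± 32.3 FPKM in exosome and 133 ± 7.14 FPKM in control libraries. The endothelial marker KDR averaged 1.07 ± 0.0983 and 1.58 ± 0.354 FPKM in the same order, without overlap. The leukocyte marker CD14 averaged 3.33 ± 0.864 FPKM in exosome and 3.44 ± 0.473 FPKM in control libraries, CD68 had 2 rows and was not used, and no row was matched for PTPRC, CD3E, CD79A or for any of 5 sperm markers. Pairs of libraries were compared by the SD of their log2 ratios over the genes tested. Exosome replicate 2 was nearer to control replicates 2 and 3 (0.203 and 0.201) than to exosome replicates 1 and 3 (0.244 and 0.251). Exosome replicates 1 and 3 were nearest to each other (0.222). Each of them was also nearer to control replicate 1 (0.239 and 0.225) than to exosome replicate 2. The part that these differences in markers play in the values below was not tested, and in such bulk samples fewer cells of a type and less RNA per cell cannot be told apart.

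Splicing transcripts were among the more abundant ones in these cells. Of the 48 members, 43 lay above the median gene, which had a mean of 15.0 FPKM over the 6 libraries, and 22 lay in the top 10% of all genes. Members ranged from 5.10 FPKM for PRPF40B to 970.4 FPKM for HNRNPA2B1. Family medians were 206 FPKM for HNRNP, 102 for SNRP, 90.7 for SRSF, 68.9 for SF3A and SF3B and 23.0 for PRPF genes. HNRNPA2B1 and HNRNPA1 together made up 25.0% of the members' summed FPKM in the exosome libraries and 24.7% in the control libraries.

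**Figure D1:**
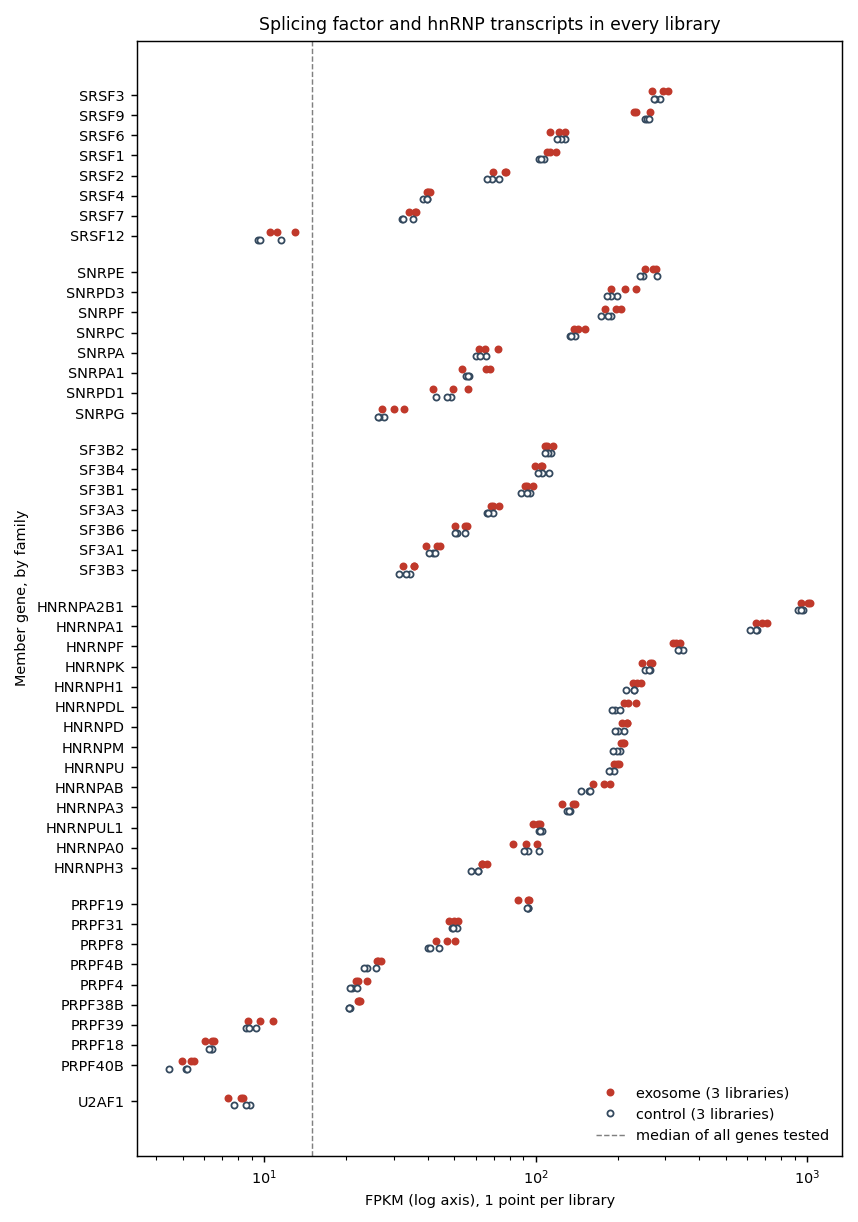
FPKM of 47 of the 48 members on a log axis, 1 point per library, with the 3 exosome libraries as filled points above the 3 control libraries as open points. The dashed line is the median of all genes tested, and most members lie to its right.

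Exosome and control libraries were compared to ask whether contact with seminal exosomes alters the transcripts of the splicing machinery. No member passed the test over all genes, with adjusted p-values from 0.317 to 0.995 in limma, and 0% of the 10846 genes tested passed. The members' log2 changes ran from -0.083 for SRSF9 to 0.19 for HNRNPAB, which in mean FPKM were differences of -5.43% and 14.2%. The 95% intervals of the 48 log2 changes reached at the widest down to -0.25 (HNRNPA0) and up to 0.40 (SRSF12), which are 0.840-fold and 1.32-fold of control. For 36 members the whole interval lay within 0.25 of 0 on the log2 scale.

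At an unadjusted p under 0.05 there were 4 members, HNRNPDL, HNRNPAB, SRSF1 and PRPF8, all with higher means in the exosome libraries. That is 8.33% of members, against 5.06% of all genes tested that were higher at this p, 7.5% lower and 12.6% in either direction. The groups did not overlap in 9 members (18.8%), all with the exosome libraries above, against 18.7% of all genes, 8.29% above and 10.4% below. A log2 change above 0 was found in 38 of 48 members, against 49.2% of all genes, and the median log2 change was 0.072 over the members and -0.00229 over all genes. Over 15 fits with another setting or with 1 library left out, 34 to 45 members were above 0, and 14 of the 48 turned their sign in at least 1 fit. Many members belong to shared complexes and may not vary independently, so these counts are a description with no test of their own. The count of 4 was 12 without exosome replicate 2, all higher, where 10.2% of all genes were higher at this p and 22% differed in either direction. It was 2 without exosome replicate 1, 1 of them higher (2.98% of all genes higher, 7.39% in either direction). With exosome replicate 3 left out 2 members were at this p, both higher (4.58% of all genes higher, 12.1% in either direction). With control replicate 3 left out there was 1, also higher (3.19% of all genes higher, 8.18% in either direction). In that fit no member passed the adjusted threshold, which 1 gene, or 0.00922% of all genes, passed. The count of members was 17, all higher, when each library was scaled to the same FPKM sum (10% of all genes higher, 13.9% in either direction), and 45 of 48 log2 changes were then above 0 while the median of all genes was 0.044.

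**Figure D2:**
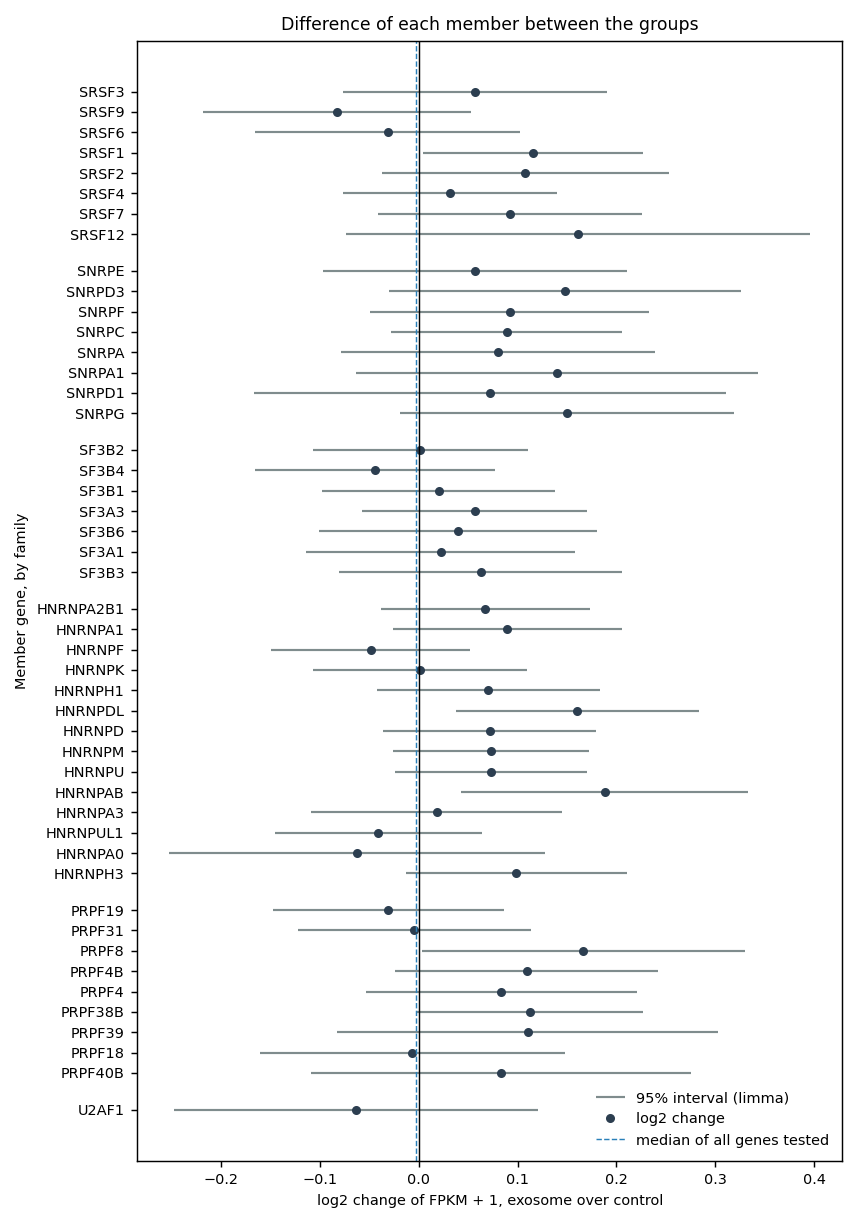
Log2 change of FPKM + 1, exosome over control, for 47 of the 48 members by family, with its 95% interval from limma. Most points lie to the right of 0, the intervals of HNRNPDL, HNRNPAB, SRSF1 and PRPF8 lie above 0, and no member passed the test over all genes.

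Among the hnRNP genes, whose products package nascent transcripts, HNRNPAB and HNRNPDL had the smallest p. HNRNPAB, an RNA-binding protein related to the A and B class of core hnRNP proteins, was at 178, 163 and 188 FPKM in exosome replicates 1, 2 and 3, against 157, 158 and 147 FPKM in control replicates 1, 2 and 3. All 3 exosome libraries lay above all 3 control libraries, with exosome replicate 2 nearest to them (log2 change 0.19, 95% interval 0.043 to 0.33, adjusted p = 0.320). HNRNPDL, a paralog of HNRNPD, was at 233, 210.3 and 218 FPKM in exosome replicates 1, 2 and 3, against 196, 204 and 190.5 FPKM in control replicates 1, 2 and 3, again without overlap (log2 change 0.16, 95% interval 0.038 to 0.28, adjusted p = 0.317). The identifiers of HNRNPAB and HNRNPDL were not found in the reference table, so their symbols could not be checked. By symbol, RefSeq's Sscrofa11.1 annotation places HNRNPAB at chr2:80186998-80194155. HNRNPDL lies at chr8:135802530-135809871 and HNRNPD beside it at chr8:135844492-135862633. HNRNPD, also called AUF1, which binds AU-rich elements and promotes decay of the mRNAs that carry them, averaged 213 ± 4.84 FPKM in exosome and 203 ± 7.88 FPKM in control libraries with overlapping groups (log2 change 0.072, 95% interval -0.036 to 0.18).

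The abundant core proteins HNRNPA2B1 and HNRNPA1 repress many exons and bind RNA along its length. HNRNPA2B1 was at 1026, 950.2 and 1003 FPKM in the exosome libraries, against 926, 967 and 950.0 FPKM in the control libraries, with control replicate 2 above exosome replicate 2 (log2 change 0.068, 95% interval -0.038 to 0.17, adjusted p = 0.573). HNRNPA1 was at 710.3, 646 and 683 FPKM in the exosome libraries, against 650.4, 649.7 and 616 FPKM in the control libraries, and exosome replicate 2 lay below control replicates 1 and 2 (log2 change 0.089, 95% interval -0.026 to 0.21, adjusted p = 0.503). HNRNPA1 has many processed copies in mammalian genomes, and how the authors' quantification shared reads among such copies is not given in the sources used here, so its level is uncertain. HNRNPA3 averaged 134 ± 8.35 FPKM in exosome and 132 ± 1.58 FPKM in control libraries (log2 change 0.018), and HNRNPA0 averaged 91.6 ± 9.20 FPKM in exosome and 95.5 ± 6.42 FPKM in control libraries (log2 change -0.062).

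Without overlap between groups were also HNRNPM, HNRNPU and HNRNPH3. HNRNPM averaged 209 ± 2.31 FPKM in exosome and 199 ± 6.09 FPKM in control libraries (log2 change 0.073, 95% interval -0.026 to 0.17). HNRNPU, a scaffold protein that links RNA and chromatin, averaged 199 ± 4.03 FPKM in exosome and 189 ± 4.02 FPKM in control libraries (log2 change 0.073, 95% interval -0.024 to 0.17). HNRNPH3 averaged 64.3 ± 1.5 FPKM in exosome and 60.0 ± 1.95 FPKM in control libraries (log2 change 0.10, 95% interval -0.013 to 0.21). The identifier of this row was not found in the reference table, which gives the name HNRNPH3 to a second row. That row averaged 25.0 ± 1.10 FPKM in exosome and 24.6 ± 1.67 FPKM in control libraries (log2 change 0.023). The level of HNRNPH3 is therefore uncertain. The other G-tract binders were HNRNPH1 (log2 change 0.071) and HNRNPF, which averaged 328 ± 10.2 FPKM in exosome and 339.6 ± 6.99 FPKM in control libraries (log2 change -0.049). HNRNPK, which binds C-rich RNA, averaged 259 ± 10.9 FPKM in exosome and 259 ± 4.90 FPKM in control libraries, with a 95% interval of the log2 change from -0.11 to 0.11. HNRNPUL1, a relative of HNRNPU, had a log2 change of -0.041. Over the 14 HNRNP genes, 11 log2 changes were above 0 and 3 below, with a median of 0.071.

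Of the 8 SR protein genes, SRSF1 had the smallest p. SRSF1, the prototype SR protein, which binds exonic enhancers, was at 119, 109.6 and 113 FPKM in exosome replicates 1, 2 and 3, against 103, 107 and 104 FPKM in control replicates 1, 2 and 3. The groups did not overlap, although exosome replicate 2 and control replicate 2 lay close together (log2 change 0.12, 95% interval 0.0041 to 0.23, adjusted p = 0.384). The gene lies at chr12:34278363-34282164 in RefSeq's Sscrofa11.1 annotation. SRSF2, a protein of nuclear speckles also called SC35, was at 76.9, 69.5 and 77.9 FPKM in the exosome libraries, against 72.9, 69.0 and 65.9 FPKM in the control libraries, with overlap through control replicate 1 (log2 change 0.11, 95% interval -0.037 to 0.25, adjusted p = 0.516).

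The most abundant SR transcripts were SRSF3 and SRSF9. SRSF3, a small SR protein that also takes part in mRNA export, was at 306, 268 and 293 FPKM in the exosome libraries, against 286, 274 and 272 FPKM in the control libraries (log2 change 0.057, 95% interval -0.076 to 0.19, adjusted p = 0.713). SRSF9 was at 263, 234 and 230.5 FPKM in the exosome libraries, against 252, 256 and 262 FPKM in the control libraries, and exosome replicates 2 and 3 lay below every control library while exosome replicate 1 lay above every one (log2 change -0.083, 95% interval -0.22 to 0.053, adjusted p = 0.588). SRSF6 averaged 121 ± 7.53 FPKM in exosome and 123 ± 4.23 FPKM in control libraries (log2 change -0.031). SRSF7, which carries a zinc knuckle, averaged 35.4 ± 1.12 FPKM in exosome and 33.2 ± 1.76 FPKM in control libraries (log2 change 0.092). SRSF4 averaged 40.1 ± 0.528 FPKM in exosome and 39.2 ± 0.738 FPKM in control libraries, without overlap by a margin under the digits printed here (log2 change 0.032), a difference of 2.27% in the mean. SRSF12 was the least abundant at 11.5 ± 1.29 FPKM in exosome and 10.2 ± 1.14 FPKM in control libraries, with the widest interval of the family (log2 change 0.16, 95% interval -0.073 to 0.40). Family counts were 6 log2 changes above 0 and 2 below, with a median of 0.075.

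All 8 SNRP genes had a log2 change above 0, from 0.057 for SNRPE to 0.15 for SNRPG (median 0.09), and in none of them were the groups apart. Without exosome replicate 1, SNRPD1 had a log2 change of -0.026, while the other 7 stayed above 0 in all 15 other fits. The median of the 8 was 0.16 without exosome replicate 2 and 0.064 without exosome replicate 1. SNRPG, SNRPD3, SNRPE, SNRPF and SNRPD1 encode proteins of the Sm ring that surrounds the snRNA of most spliceosomal snRNPs. SNRPG was at 32.6, 27.1 and 30.0 FPKM in exosome replicates 1, 2 and 3, against 27.5, 26.5 and 26.3 FPKM in control replicates 1, 2 and 3, with exosome replicate 2 below control replicate 1 (log2 change 0.15, 95% interval -0.019 to 0.32, adjusted p = 0.436). SNRPD3 was at 233, 189 and 213 FPKM in the exosome libraries, against 199, 189 and 183 FPKM in the control libraries, and exosome replicate 2 again lay within the control libraries (log2 change 0.15, 95% interval -0.03 to 0.33, adjusted p = 0.466). SNRPE was at 269, 251 and 277 FPKM in the exosome libraries, against 279, 247 and 242 FPKM in the control libraries, with control replicate 1 as the highest library (log2 change 0.057, 95% interval -0.10 to 0.21, adjusted p = 0.753). SNRPF averaged 194 ± 12.8 FPKM in exosome and 182 ± 7.83 FPKM in control libraries (log2 change 0.092) and SNRPD1 averaged 49.0 ± 7.09 FPKM in exosome and 46.3 ± 2.98 FPKM in control libraries (log2 change 0.072). Although these proteins share 1 ring, their transcripts differed 9.21-fold in mean FPKM over the 6 libraries between SNRPE and SNRPG. Levels of such short transcripts depend on the length correction of the quantification.

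In the snRNP-specific group, SNRPA and SNRPC encode specific proteins of the U1 snRNP, which recognises the 5′ splice site. SNRPC averaged 144 ± 7.09 FPKM in exosome and 136 ± 2.99 FPKM in control libraries (log2 change 0.089, 95% interval -0.028 to 0.21), and SNRPA averaged 66.4 ± 5.44 FPKM in exosome and 62.6 ± 2.81 FPKM in control libraries (log2 change 0.08, 95% interval -0.079 to 0.24). SNRPA1, chosen after its values were seen, encodes a specific protein of the U2 snRNP and lies at chr1:145707393-145719287. It was at 67.8, 53.3 and 65.5 FPKM in exosome replicates 1, 2 and 3, against 55.2, 56.6 and 56.2 FPKM in control replicates 1, 2 and 3. Exosome replicates 1 and 3 stood above every control library and exosome replicate 2 below every one (log2 change 0.14, 95% interval -0.063 to 0.34, adjusted p = 0.541). Without exosome replicate 2, SNRPA1 was the 1 member that passed over all genes, with a log2 change of 0.25 and an adjusted p of 0.0431, where 2.74% of all genes passed. Under the other 14 alternatives its adjusted p ran from 0.395 to 0.876.

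SF3A and SF3B genes, whose products are the U2 snRNP parts that clamp the branch site, gave a median log2 change of 0.022, which was 0.072 with equal FPKM sums and 0.011 to 0.04 when single libraries were left out. None of the 7 reached an unadjusted p of 0.05, and the groups overlapped in each. SF3A3 was at 73.1, 69.4 and 68.3 FPKM in the exosome libraries, against 69.6, 66.2 and 66.7 FPKM in the control libraries, with control replicate 1 above exosome replicates 2 and 3 (log2 change 0.057, 95% interval -0.057 to 0.17, adjusted p = 0.662). SF3B3 was at 35.5, 35.7 and 32.4 FPKM in the exosome libraries, against 34.5, 33.2 and 31.4 FPKM in the control libraries, with overlap (log2 change 0.063, 95% interval -0.081 to 0.21, adjusted p = 0.706). SF3B2, the most abundant, was at 115, 108 and 110.3 FPKM in the exosome libraries, against 114, 111 and 108 FPKM in the control libraries (log2 change 0.0017, 95% interval -0.11 to 0.11, adjusted p = 0.991). SF3B4 was at 104, 99.3 and 105 FPKM in the exosome libraries, against 112, 105 and 102 FPKM in the control libraries (log2 change -0.044, 95% interval -0.17 to 0.077, adjusted p = 0.757). The groups of both genes were interleaved. SF3B1, the large subunit that holds the branch site and is often mutated in cancers, averaged 93.6 ± 3.23 FPKM in exosome and 92.3 ± 3.59 FPKM in control libraries (log2 change 0.02, 95% interval -0.10 to 0.14). SF3B6, which sits beside the branch-point adenosine, averaged 53.6 ± 3.06 FPKM in exosome and 52.1 ± 2.37 FPKM in control libraries (log2 change 0.04). SF3A1 averaged 42.3 ± 2.55 FPKM in exosome and 41.6 ± 1.08 FPKM in control libraries (log2 change 0.022). The 5 SF3B transcripts differed 3.29-fold in mean FPKM between SF3B2 and SF3B3.

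Most PRPF genes were moderately expressed. PRPF8, the large scaffold protein at the catalytic centre of the spliceosome, lies at chr12:47861041-47895286 and was at 50.5, 46.9 and 43.0 FPKM in exosome replicates 1, 2 and 3, against 39.99, 43.9 and 40.7 FPKM in control replicates 1, 2 and 3. Exosome replicate 3 lay below control replicate 2, so the groups overlapped (log2 change 0.17, 95% interval 0.0035 to 0.33, adjusted p = 0.389). PRPF38B was at 22.5, 22.3 and 22.1 FPKM in the exosome libraries, against 20.7, 20.5 and 20.5 FPKM in the control libraries, a small spread within each group and no overlap (log2 change 0.11, 95% interval -0.0019 to 0.23, adjusted p = 0.403). Its identifier carries the symbol STXBP3 in the reference table, so it is uncertain which gene these values belong to. PRPF4B, a kinase that acts on spliceosomal proteins and is listed there as PRP4K, averaged 26.3 ± 0.440 FPKM in exosome and 24.3 ± 1.31 FPKM in control libraries without overlap (log2 change 0.11, 95% interval -0.024 to 0.24).

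PRPF19, a ubiquitin ligase at the heart of the complex that activates the spliceosome, was at 93.7, 94.1 and 86.1 FPKM in the exosome libraries, against 93.4, 93.7 and 92.5 FPKM in the control libraries. Exosome replicate 3 was the lowest library and the other 5 lay within a narrow range (log2 change -0.031, 95% interval -0.15 to 0.086, adjusted p = 0.830). PRPF31, which joins the U4/U6 and U5 snRNPs, was at 49.8, 47.9 and 51.7 FPKM in the exosome libraries, against 51.3, 49.0 and 49.4 FPKM in the control libraries, and the groups were interleaved (log2 change -0.0042, 95% interval -0.12 to 0.11, adjusted p = 0.982). PRPF4, another protein of the U4/U6 snRNP, averaged 22.5 ± 1.17 FPKM in exosome and 21.2 ± 0.625 FPKM in control libraries (log2 change 0.084). PRPF40B and PRPF39, relatives of yeast U1 snRNP proteins, had log2 changes of 0.083 and 0.11. PRPF18, a factor of the second catalytic step, averaged 6.31 ± 0.241 FPKM in exosome and 6.34 ± 0.0918 FPKM in control libraries (log2 change -0.0063). The family had 7 log2 changes above 0 and 3 below, with a median of 0.083.

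U2AF1, the small subunit that reads the AG at the 3′ splice site, was the single U2AF row. It was at 8.18, 7.32 and 8.33 FPKM in the exosome libraries, against 7.70, 8.83 and 8.51 FPKM in the control libraries, with overlapping groups (log2 change -0.063, 95% interval -0.25 to 0.12, adjusted p = 0.775). Its identifier, like those of HNRNPAB, HNRNPDL and other members named below, was not found in the reference table, so its symbol could not be checked.

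A further 5 rows had no symbol in the table but carry a name of these families in the reference table, and SFRS11 is the older symbol of SRSF11. They lay outside the selection and are given for completeness. HNRNPUL2 averaged 110.4 FPKM in exosome and 114 FPKM in control libraries, and HNRNPR averaged 68.8 FPKM in exosome and 69.4 FPKM in control libraries. Log2 changes were -0.047 for HNRNPUL2, -0.013 for HNRNPR, 0.013 for PRPF38A, 0.017 for PRPF3 and 0.053 for SFRS11. None passed, with adjusted p-values from 0.699 to 0.965 over these 4, the second HNRNPH3 row and SFRS11.

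Libraries of the exosome group differed among themselves more than those of the control group in the SNRP genes. Over all genes tested, the SDs of log2 ratios were also larger between exosome libraries (0.222 to 0.251) than between control libraries (0.171 to 0.206). The median of the 8 SNRP genes relative to the control mean was 0.24, -0.018 and 0.14 on the log2 scale in exosome replicates 1, 2 and 3, against 0.057, -0.013 and -0.02 in control replicates 1, 2 and 3. Exosome replicate 2 thus lay within the control range, and the other two exosome libraries lay above it. For SRSF genes the medians were 0.085, 0.03 and 0.091 in the exosome libraries and 0.047, -0.0042 and -0.031 in the control libraries, which overlapped through exosome replicate 2 and control replicate 1. For HNRNP genes they were 0.094, 0.059 and 0.069, against 0.0044, 0.026 and -0.022 in the control libraries, with all 3 exosome libraries above. For PRPF genes they were 0.12, 0.013 and 0.071, against 0.0063, 0.0026 and -0.018 in the control libraries, again all above. SF3A and SF3B medians were 0.087, 0.04 and -0.012 in exosome and 0.044, 0.0023 and -0.04 in control libraries, with overlap. Of the 38 members with a log2 change above 0, exosome replicate 2 was the lowest exosome library in 24 (63.2%), against 48.6% of all genes with such a log2 change.

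**Figure D3:**
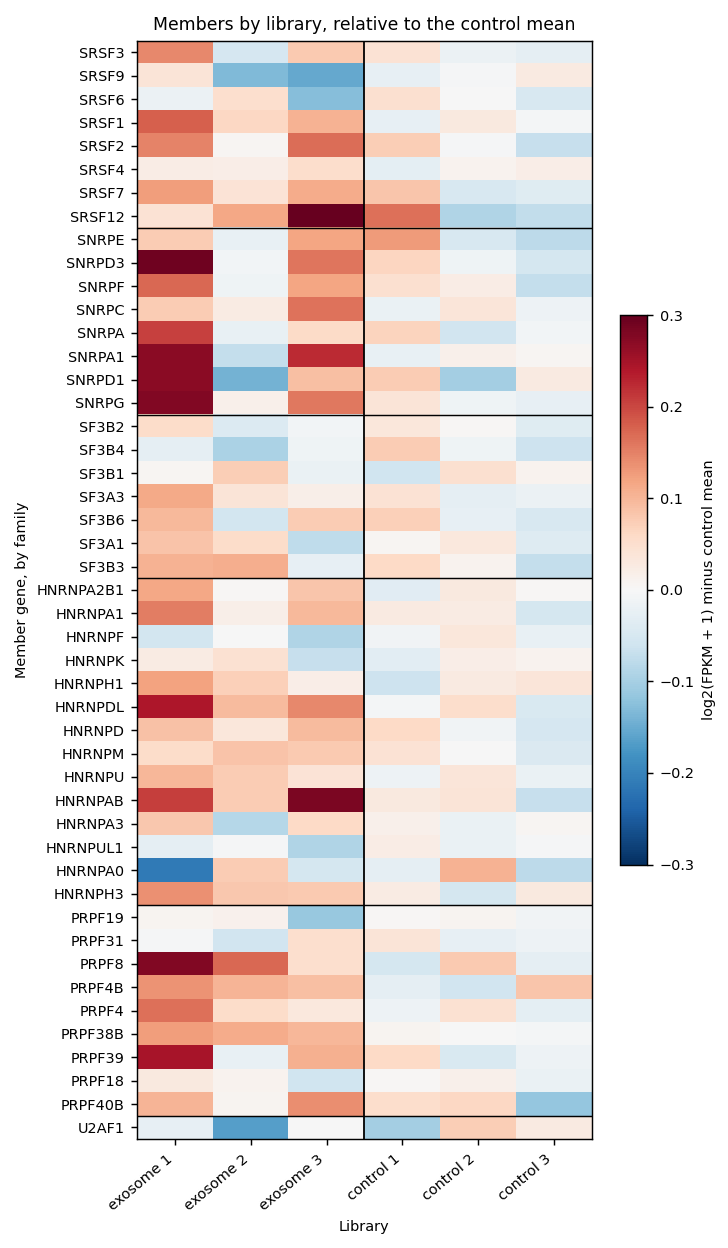
Heat map of log2(FPKM + 1) minus the control mean for 47 of the 48 members (rows, by family) in the 3 exosome and 3 control libraries (columns), with colours held at 0.3 above and below 0. The SNRP rows are red in exosome replicates 1 and 3 and pale or blue in exosome replicate 2.

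Summed over the 48 members, FPKM was 6896, 6473 and 6670 in exosome replicates 1, 2 and 3, against 6475, 6472 and 6314 in control replicates 1, 2 and 3, so the groups overlapped narrowly. As a share of all FPKM, which summed to less in the exosome libraries, the members made up 0.950% ± 0.0439 in the exosome and 0.881% ± 0.00530 in the control libraries (SD, n = 3 each). The share ran from 0.914% to 0.999% in the exosome libraries and from 0.875% to 0.886% in the control libraries, without overlap. What the members' share owes to transcripts of other genes was not tested.

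**Figure D4:**
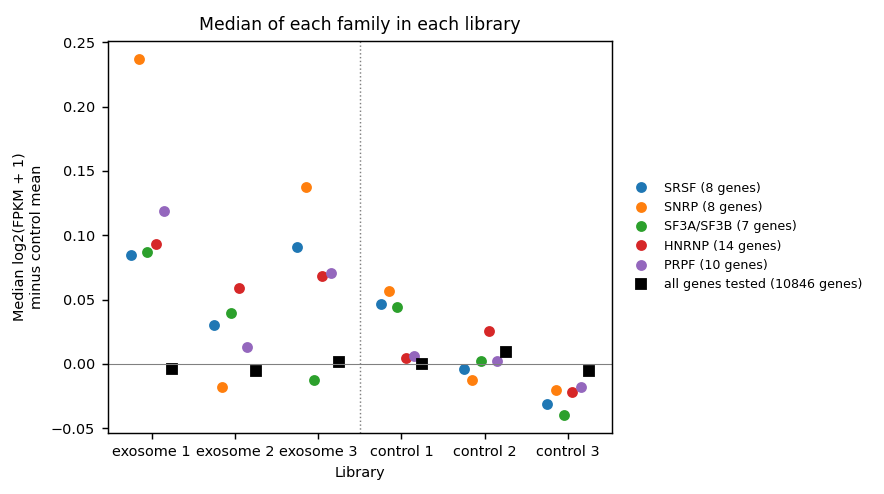
Median log2(FPKM + 1) minus the control mean over the genes of each family in each library, with the median of all genes tested as squares. The SNRP median is highest in exosome replicates 1 and 3 and within the control range in exosome replicate 2, while the median of all genes stays near 0 in every library.

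The rest of the splicing pathway was read from a list of 126 symbols by role, of which 97 were matched, 12 of them through the reference table. None passed over all genes. At an unadjusted p under 0.05 there were 3 higher (MAGOHB, DDX46 and SRRM2) and 1 lower (PCBP1), a smaller share than the 12.6% of all genes. The median log2 change was 0.014 with 55 of 97 above 0. The groups did not overlap in 11 of the 97 with the exosome libraries above and in 4 below, against 8.29% and 10.4% of all genes. Among early spliceosome and exon junction genes, MAGOHB, a core protein of the exon junction complex, was at 63.8, 53.6 and 58.8 FPKM in the exosome libraries, against 50.1, 48.3 and 47.9 FPKM in the control libraries, without overlap (log2 change 0.26, adjusted p = 0.251). The other exon junction genes listed, MAGOH, EIF4A3, RBM8A and CASC3, had log2 changes of -0.013, -0.0093, -0.0079 and -0.088, with overlapping groups. DDX46, a helicase of the U2 snRNP step, and DHX15, a helicase that takes the spliceosome apart after splicing, had log2 changes of 0.15 and 0.085, and 5 of 12 in this role were above 0. Among other SR-related genes, SRRM2, a large protein of nuclear speckles, averaged 57.3 ± 3.52 FPKM in exosome and 51.2 ± 2.15 FPKM in control libraries (log2 change 0.16), and PNN and PPIG had log2 changes of 0.10 and 0.13. In this role 6 of 10 were above 0.

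Among genes listed under snRNP assembly, not all of which load Sm proteins onto snRNA, all 14 matched had a log2 change above 0. GEMIN8 and SART1 lay below 0 in some of the fits without 1 library. The median of the 14 was 0.089 against 0.09 for the SNRP genes, and none of them reached an unadjusted p of 0.05. GEMIN4, of the SMN complex, averaged 19.8 ± 1.61 FPKM in exosome and 17.7 ± 1.02 FPKM in control libraries (log2 change 0.15). CLNS1A, the chaperone pICln that holds Sm proteins before assembly, averaged 90.1 ± 3.64 FPKM in exosome and 84.2 ± 1.40 FPKM in control libraries without overlap (log2 change 0.10), and USP39 had a log2 change of 0.15. The Sm-like genes LSM5, LSM6 and LSM3 had log2 changes of 0.19, 0.065 and 0.076, and 5 of 6 in this role were above 0. Among the kinases that phosphorylate SR proteins, SRPK1, CLK4 and CLK3 had log2 changes of 0.086, 0.092 and -0.047. Of the 7 kinases, 2 were above 0 and 5 below, with a median of -0.0085. Among other exon and intron regulators PCBP1, a C-rich RNA binder, averaged 354 ± 12.1 FPKM in exosome and 379.6 ± 5.94 FPKM in control libraries without overlap (log2 change -0.10), RBFOX2 and RALY had log2 changes of -0.12 and -0.09, and 10 of 27 were above 0. In the catalytic stage PLRG1, BUD31 and XAB2 had log2 changes of -0.23, -0.13 and -0.10, and 13 of 21 were above 0. The groups did not overlap in 3 genes of this role with the exosome libraries below, PLRG1 and XAB2 among them, and in 2 with the exosome libraries above. These lists were read beside all genes, of which 49.2% were above 0, and no test of a list was run.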

How the data were processed

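Per the labels' protocols, stranded mRNA libraries were made from total RNA of 6 samples. The submitters' processing notes name bcl2fastq 1.8.4, TopHat, Cufflinks and the build Sscrofa11.1. The annotation, filters and other versions were not given in the sources used here. No header states a unit, and the authors' deposited numbers were read as FPKM because Cufflinks is named and the values fit it. The table held 10916 rows, 1 of them without values, and no 0. Genes silent in any library may therefore be missing, and depth is unknown.

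The 10846 genes whose mean reached 1 FPKM were tested as log2(FPKM + 1), which understates changes of low genes. The test was limma 3.58.1 in R 4.3.3, two-sided, with group as the only term, a variance trend on intensity and 4 residual degrees of freedom. P-values were adjusted by Benjamini-Hochberg across the 10846 genes, with 0.05 as threshold, and 95% intervals are per gene and unadjusted. The scripts were tested on simulated data. Plots used matplotlib 3.10.9 in Python 3.11.15. The members and lists were chosen with earlier results of these data known.

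Per-library values were given for members at an unadjusted p under 0.05 and for the 2 with the smallest p and the 2 with the highest mean in each family, and the 3 smallest p were named in each pathway role. Values of 1 member are not reported here, though it enters the counts and medians. Symbols are those of the table. Of the members' identifiers, 30 carry the same symbol in the reference table, 2 another (PRPF38B and PRPF4B) and 16 were not found. Those not found were SRSF2, SRSF4, SRSF12, SNRPC, SNRPD3, SNRPG, SF3B1, SF3B3, HNRNPA0, HNRNPA2B1, HNRNPA3, HNRNPAB, HNRNPDL, HNRNPF, HNRNPH3 and U2AF1. Positions are from RefSeq by symbol. Alternatives covered the pseudocount, the filter, scaling, the intensity trend, the replicate block and each library left out.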

Additional observations from a re-analysis of the deposited data

How the results depend on the processing

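Recomputed counts and medians over all genes or all members stayed within 1.5 times, or within 1 SD between libraries, in 51 cases and moved further in 12. The members past the threshold numbered 0 to 1 and all genes past it 0 to 297 when single libraries were left out, the highest without exosome replicate 2, and 1 gene passed without control replicate 3. The members at an unadjusted p under 0.05 numbered 1 to 12 in those fits, 17 with each library scaled to the same FPKM sum, 9 with quantile normalization, and 2 each under the replicate block and without the trend of variance on intensity. At the same p, all genes in either direction made up 7.39% to 22% in the fits without 1 library, 13.9% with equal sums, 12.5% with quantile normalization, 12.3% under the block and 12.1% without the trend. The share of all genes that were higher was 2.98% to 10.2%, 10%, 6%, 4.77% and 5.18% in the same order, and the members counted were all higher except 1 of 2 without exosome replicate 1. The median log2 change of the members was 0.12 with equal FPKM sums and 0.04 to 0.10 over the fits without 1 library. With equal sums the family medians were 0.12 for HNRNP, 0.13 for PRPF, 0.14 for SNRP and 0.12 for SRSF genes. The PRPF median was 0.049 without exosome replicate 1 and the SRSF median 0.11 without exosome replicate 2.

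Same-numbered libraries did not all deviate together (correlations of 0.161, 0.144 and -0.0701 for replicates 1, 2 and 3). Exosome replicate 2 and control replicate 3, with unlike numbers, correlated at 0.169. With 3 libraries per group and no donor in the labels, these correlations cannot decide whether the numbers pair the samples. The main fit used no pairing. Of the 48 members, 14 turned their sign in at least 1 fit, all with a log2 change within 0.072 of 0. Of these, SNRPD1, SF3A1 and HNRNPA0 turned without exosome replicate 1, HNRNPF and HNRNPUL1 with equal FPKM sums, SF3B1, HNRNPK and HNRNPA3 in fits without 1 library, and SRSF6 and PRPF18 in both kinds. The other 4 are among the 21 given in every library. With equal FPKM sums SF3B4 was at 0.0061, PRPF19 at 0.019 and PRPF31 at 0.046, and PRPF31 was at 0.0082 with quantile normalization. In fits without 1 library, SF3B2 ranged from -0.025 to 0.023, PRPF31 from -0.031 to 0.023 and PRPF19 from -0.053 to 0.011. Other than the fewer libraries and the scaling itself, the cause was not tested. A gene at 0 in any library cannot be followed here, and without counts the part of counting error in the spread is unknown.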
